A study of Arabidopsis thaliana with 14 samples.

Results

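The 200 brightest annotated transcripts of imbibed wild type *Arabidopsis thaliana* seed were described across 4 groups of seed. They are the probe sets that the platform annotation pairs with exactly 1 gene and that had the highest mean log2 intensity over the 4 arrays of wild type seed on water. The choice was made among 13513 such probe sets, of 22746 on the array other than controls. Genes encoded in the plastid or the mitochondrion were to be left out, but none stood among the 200, the first being psbM at rank 202. The wild type water levels therefore chose the members, and every difference that uses those 4 arrays is given below as a value with no test. Brightness of a probe set also depends on how well its probes bind, so the rank is one of signal, and levels of different genes are not set against each other as amounts of RNA.

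Whole seed was measured on 14 single-colour arrays after 24 h of imbibition at 20 C in white light of 100 uE on agar of 0.8%. The groups were ga1-3 seed on 1 uM KAR1 (3 arrays), ga1-3 seed on water (3 arrays), wild type seed on 1 uM KAR1 (4 arrays) and wild type seed on water (4 arrays). The wild type was Landsberg erecta, ga1-3 is a mutant deficient in gibberellin whose parent strain its labels do not name, and KAR1 is a karrikin, a germination stimulant found in smoke. All seed was primary dormant and kept cold to preserve that dormancy, and the study asked how KAR1 acts in seed that can germinate and in seed that cannot. Letters name separate harvests of seed (A, B and C of ga1-3, and A, B, C and D of wild type), and each harvest was split between KAR1 and water. Whole seed mixes embryo, endosperm and seed coat, so fewer cells of a type and less RNA per cell cannot be told apart.

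A mature seed carries messenger RNA stored during its development, and for the first hours after water uptake much of what can be detected was made before the seed dried. Typical transcripts of that kind encode storage proteins, oleosins that coat oil bodies, late embryogenesis abundant (LEA) proteins that accumulate as seed dries, small heat shock proteins and enzymes against oxidation. Once imbibed, a seed that prepares to germinate builds up its protein synthesis machinery, in which ribosomal proteins form the largest family.

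The genotypes differed in the general shape of their values, which bears on every comparison between them. Mean intensity per array lay between 283.7 and 289.7 in ga1-3 and between 255.6 and 263.6 in wild type, and the 99th percentile of log2 intensity between 12.29 and 12.38 in ga1-3 and between 12.11 and 12.19 in wild type. The difference between the 3′ and 5′ probe sets of the actin control, a sign of RNA or labelling quality, lay between 0.63 and 0.82 (log2) in ga1-3 and between 0.81 and 1.29 in wild type. By the levels of 21 spiked-in control probe sets the arrays were cut into 3 clusters, a number that was set and not found from the data. They are called hybridisation clusters here, although the labels name no such batch. Which step of the work set the arrays apart was not tested. The first held wild type A and B, the second ga1-3 A with wild type C and D, and the last ga1-3 B and C. Genotype is therefore only partly separable from these clusters. Only 2 of 19 listed seed markers could be looked up by a gene name, the oleosin AT3G01570, a member at log2 13.67 to 13.98 on all 14 arrays, and OLEO3 at 11.10 to 11.52. No endosperm or leaf marker could be looked up, the pollen marker AT3G07820 lay between 2.38 and 2.61, and the root marker PYK10 averaged 2.48 in ga1-3 on KAR1, 2.55 in ga1-3 on water, 6.08 in wild type on KAR1 and 5.21 in wild type on water.

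The members spanned mean log2 intensities of 14.61 to 11.36 in wild type on water, the last of them an intensity of 2638 against a median of 10.9 over all probe sets. Together they held 21.5% to 22.3% of the summed intensity of each wild type water array. The median member lay at 12.32 in ga1-3 on KAR1, 12.32 in ga1-3 on water, 12.26 in wild type on KAR1 and 12.23 in wild type on water. Just inside the limit of rank 200 stood AT5G43770 at 11.38, AT4G20150 at 11.37 and AT5G56100 at 11.36. Just outside stood AT3G04840, which encodes the small subunit protein S3a, at 11.36, psbM at 11.36 and AT1G14940 at 11.35. The limit thus cut through a continuous run of levels, and 228 probe sets with no gene or several in the annotation were at least as bright as the last member.

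**Figure D1:**
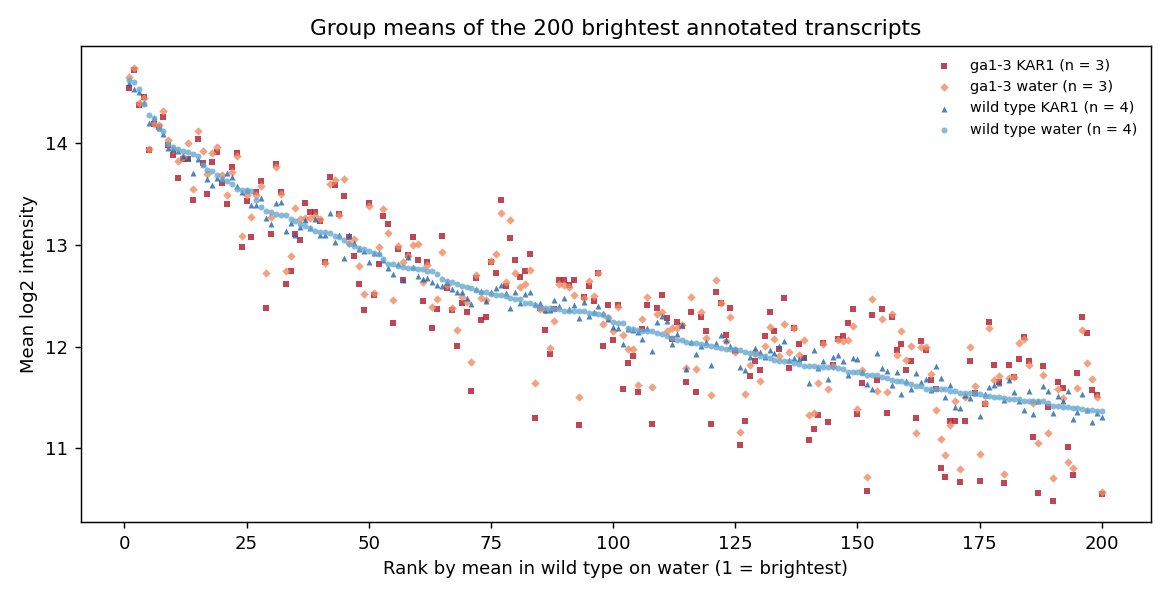
Group means of the 200 members (y axis, log2 intensity) against their rank in wild type seed on water (x axis), with red squares for ga1-3 on KAR1, orange diamonds for ga1-3 on water, dark blue triangles for wild type on KAR1 and light blue circles for wild type on water. Wild type on KAR1 follows the wild type water curve closely, while the ga1-3 means scatter around it, more widely at lower ranks.

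By role, the largest group among the members was the cytosolic ribosomal proteins, with 58 genes for 42 proteins. They comprised 32 genes of the large subunit, 21 of the small subunit and 5 of the acidic stalk. LEA and dehydrin proteins numbered 19, enzymes of metabolism 12, redox and stress proteins 11, and defensins, inhibitors and lipid transfer proteins 8. A further 8 genes encode translation factors or ribosome assembly proteins, 6 act in signalling, chromatin or protein turnover, 5 are storage proteins or process them, and there were 3 each for oil bodies and lipid use, small heat shock proteins, and mitochondrial respiration or iron-sulfur assembly. No role was given to 64 members. These counts by role cover annotated probe sets only. Of the 200 brightest probe sets of any annotation, 99 had the annotation needed to become members. Of 19 listed seed markers only 2 could be looked up by a gene name, and the others could not become members. How many storage or oil body transcripts stood among the brightest probe sets of the array is therefore not shown by these counts. The members' gene spans had a median of 1572.5 bp, against 1922.5 bp for ranks 201 to 1000 and 2105 bp for the annotated genes.

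Against wild type on KAR1, ga1-3 on KAR1 had 44 members higher and 36 lower at an adjusted p under 0.05, while 120 were not called. Over all probe sets 19.3% were called higher and 18.3% lower, or 37.6% in either direction, and among the members 40%, so the members were called about as often as the array at large. Their median difference was 0.02 (log2) with a range of -1.11 to 0.83, and the median over all probe sets was -0.00. The groups did not overlap for 91 of the 200, or 45.5%, against 48.6% of all probe sets. The wild type arrays of this comparison did not choose the members, but they come from the same 4 harvests as those that did.

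How many members counted as higher depended on the scaling of the arrays. With quantile normalization 14 were called higher and 57 lower, against 19.6% and 15.5% of all probe sets (35.1% in either direction). With the arrays shifted to a common median, which moved the median of all probe sets by -0.13, 17 were higher and 48 lower, against 12.2% and 28.7% of all (40.8% in either direction). In all 3 scalings 11 members were called higher and 36 lower, against 11.3% and 12.7% of all probe sets (24% in either direction). Leaving out the ga1-3 KAR1 array of harvest B gave 23 higher and 24 lower, against 13.2% and 14% of all probe sets (27.1% in either direction). Leaving out that of harvest C gave 25 and 23, against 13.7% and 13.3% (27% in either direction). With the hybridisation cluster as a block 21 were higher and 17 lower, against 9.4% and 10.4% of all probe sets (19.8% in either direction). In that fit the genotypes meet only in the second cluster. Every difference given below with the cluster block therefore rests on ga1-3 harvest A against wild type harvests C and D. Within the cluster that holds both genotypes, with 1 ga1-3 array on KAR1, 18 were higher and 13 lower, against 8.27% and 10.8% (19.1% in either direction). Calls of single genes lost within that cluster, in the fit without it, with a floor at intensity 16 or without both arrays of a harvest A are not listed gene by gene.

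**Figure D2:**
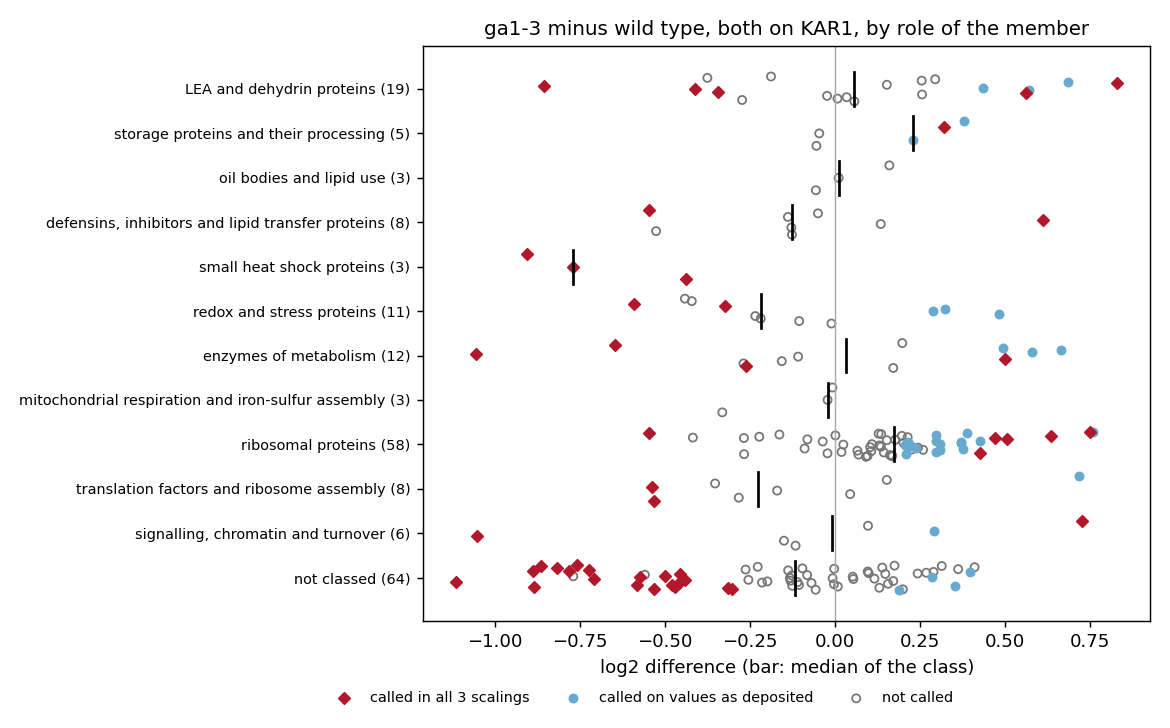
Difference of ga1-3 minus wild type, both on KAR1, for each of the 200 members (x axis, log2), in rows by role with the number of members in brackets; the bar is the median of the row. Red diamonds were called in all 3 scalings, blue circles only on the values as deposited or in part of the scalings, open circles not on the values as deposited. Small heat shock proteins all lie below 0, ribosomal proteins mostly above it.

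Storage proteins and the proteases that process them were among the brightest members. PAP85 (AT3G22640), a vicilin-like storage protein of the cupin family and the brightest member, had log2 intensities of 14.60, 14.48 and 14.52 in ga1-3 on KAR1, 14.68, 14.62 and 14.65 in ga1-3 on water, 14.54, 14.63, 14.53 and 14.64 in wild type on KAR1, and 14.59, 14.60, 14.58 and 14.68 in wild type on water. Those groups overlapped and all 14 arrays lay within 0.20 of each other. The vacuolar processing enzyme gene BETA-VPE (AT1G62710), whose product cleaves storage proteins, averaged 13.60 ± 0.07 in ga1-3 on KAR1 (SD, n = 3) and 13.65 ± 0.11 in wild type on KAR1 (SD, n = 4), and was not called. The papain-type cysteine protease AT3G54940 had 13.86, 13.88 and 13.94 in ga1-3 on KAR1, against 13.47, 13.58, 13.64 and 13.60 in wild type on KAR1. Every ga1-3 array stood above every wild type array, and the difference was 0.32 ± 0.06 (log2 ± SE, adjusted p = 0.00128). That call was kept in every setting tried. The cupin AT2G28490 was also higher, 13.80, 13.80 and 13.84 in ga1-3 on KAR1 against 13.48, 13.65, 13.47 and 13.72 in wild type on KAR1 (0.23 ± 0.08, adjusted p = 0.0315), as was the aspartic protease APA1 (AT1G11910), at 13.79 ± 0.09 against 13.41 ± 0.16 (0.38 ± 0.12, adjusted p = 0.0235). Neither of these calls held with quantile normalization (0.16 for AT2G28490 and 0.28 for APA1), the median shift (0.098 and 0.25) or the hybridisation cluster as a block (0.17 and 0.29), and both were lost without ga1-3 KAR1 B (0.24 and 0.33), without ga1-3 KAR1 C (0.22 and 0.39) or without wild type KAR1 A (0.20 and 0.32), AT2G28490 also without ga1-3 KAR1 A (0.24) or wild type KAR1 C (0.20).

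The 3 members for oil bodies and lipid use were not called between the genotypes on KAR1. The oleosin AT3G01570 had 13.77, 13.79 and 13.85 in ga1-3 on KAR1, 13.83, 13.94 and 13.98 in ga1-3 on water, 13.80, 13.89, 13.80 and 13.67 in wild type on KAR1, and 13.83, 13.82, 13.76 and 13.71 in wild type on water. The oleosin AT2G25890 averaged 12.85 ± 0.14 in ga1-3 on KAR1 and 12.69 ± 0.13 in wild type on KAR1. ICL (AT3G21720), the isocitrate lyase with which a seedling turns stored fat into sugar precursors through the glyoxylate cycle, averaged 13.88 ± 0.09, 13.93 ± 0.15, 13.94 ± 0.12 and 13.96 ± 0.11 in ga1-3 on KAR1, ga1-3 on water, wild type on KAR1 and wild type on water. All of these ranges overlapped.

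Of the 19 LEA and dehydrin genes 5 were higher and 3 lower in ga1-3 than in wild type on KAR1, with a median of 0.06. These counts are 26.3% and 15.8%, near the 19.3% and 18.3% of all probe sets. Quantile normalization gave 2 higher and 4 lower with a median of -0.03. That is 10.5% and 21.1%, against 19.6% and 15.5% of all probe sets. The median shift gave 4 and 4 with a median of -0.07, or 21.1% each, against 12.2% and 28.7%. With the cluster block there were 1 and 2, or 5.26% and 10.5%, against 9.4% and 10.4%. The brightest of them, AT3G15670, averaged 14.45 ± 0.08 in ga1-3 on KAR1 and 14.39 ± 0.12 in wild type on KAR1 and was not called. Likewise LEA18 (AT2G35300), M10 (AT2G41280), M17 (AT2G41260) and the dehydrin LEA (AT2G21490), all among the 20 brightest members, were not called. AT1G47980, a desiccation-related protein gene, was the member with the largest positive difference. It had 13.27, 13.66 and 13.38 in ga1-3 on KAR1 and 13.04, 13.39 and 13.51 in ga1-3 on water, against 12.46, 12.85, 12.61 and 12.49 in wild type on KAR1 and 12.17, 13.15, 12.50 and 12.19 in wild type on water. On KAR1 the genotypes did not overlap (0.83 ± 0.22, adjusted p = 0.0105), whereas on water the wild type array of harvest B lay above a ga1-3 array. The call was lost without ga1-3 KAR1 B (0.72) and with the hybridisation cluster as a block (0.72).

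AT4G21020, another LEA gene, stood at 13.76, 13.50 and 13.50 in ga1-3 on KAR1, against 12.88, 13.13, 12.91 and 13.18 in wild type on KAR1 (0.56 ± 0.11, adjusted p = 0.0021). All ga1-3 arrays were above all wild type arrays. AT3G53040 averaged 13.06 ± 0.11 in ga1-3 on KAR1 and 12.38 ± 0.32 in wild type on KAR1 (0.69 ± 0.21, adjusted p = 0.0231), and it was no longer called with quantile normalization (0.54), with the cluster block (0.48) or without any one of ga1-3 KAR1 B (0.69), ga1-3 KAR1 C (0.63), wild type KAR1 A (0.57) and wild type KAR1 C (0.64). Lower in ga1-3 were LEA4-5 (AT5G06760), AT3G22490 and AT2G23110. LEA4-5 had 12.56, 12.55 and 12.42 in ga1-3 on KAR1, against 13.08, 13.01, 12.86 and 12.74 in wild type on KAR1, without overlap (-0.41 ± 0.09, adjusted p = 0.00321). AT3G22490, a seed maturation gene, had 12.66, 12.62 and 12.57 in ga1-3 on KAR1 against 12.93, 13.05, 12.998 and 12.86 in wild type on KAR1 (-0.34 ± 0.07, adjusted p = 0.00183). AT2G23110 had 11.86, 11.55 and 11.29 in ga1-3 on KAR1 against 12.88, 12.42, 12.20 and 12.18 in wild type on KAR1 (-0.85 ± 0.22, adjusted p = 0.0097), and was not called without ga1-3 KAR1 C (-0.72) or with the cluster block (-0.37).

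Among the 8 defensins, inhibitors and lipid transfer proteins, small secreted proteins of which many act against microbes, 1 was higher and 1 lower. That is 12.5% in each direction, against 19.3% and 18.3% of all probe sets. With the cluster block there were 2 and 0, or 25% and 0%, against 9.4% and 10.4%. LCR67 (AT1G75830), a defensin and the member of rank 3, had 14.64, 14.26 and 14.22 in ga1-3 on KAR1, 14.65, 14.20 and 14.34 in ga1-3 on water, 14.42, 14.44, 14.53 and 14.60 in wild type on KAR1, and 14.48, 14.40, 14.58 and 14.68 in wild type on water. Harvest A of ga1-3 stood above its other harvests in both treatments. The defensin PDF2.1 (AT2G02120) had 13.41, 13.49 and 13.53 in ga1-3 on KAR1, against 13.10, 12.997, 12.69 and 12.68 in wild type on KAR1, with no overlap (0.61 ± 0.11, adjusted p = 0.00127). AT1G71950, a peptidase inhibitor gene, averaged 10.74 ± 0.21 in ga1-3 on KAR1 and 11.29 ± 0.23 in wild type on KAR1 (-0.55 ± 0.16, adjusted p = 0.021). Its call was lost without ga1-3 KAR1 B (-0.50), ga1-3 KAR1 C (-0.47) or wild type KAR1 A (-0.45), and with the cluster block the difference was -0.25. The trypsin inhibitor AT1G47540 was not called, with 13.23, 12.22 and 12.37 in ga1-3 on KAR1 and 13.49, 13.20, 12.84 and 13.01 in wild type on KAR1.

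All 3 small heat shock protein genes, whose products keep unfolding proteins from clumping, were lower in ga1-3 on KAR1, as were 18.3% of all probe sets. AT1G52560 had 11.28, 11.14 and 11.17 in ga1-3 on KAR1 and 11.45, 11.26 and 11.34 in ga1-3 on water, against 11.99, 11.95, 11.94 and 11.97 in wild type on KAR1 and 11.89, 11.75, 11.80 and 11.78 in wild type on water. The genotypes lay clearly apart in both treatments, and on KAR1 the difference was -0.77 ± 0.06 (adjusted p = 2.4e-06), a call lost in no setting tried. AT1G54050 had 9.86, 10.86 and 10.95 in ga1-3 on KAR1 and 11.15, 10.99 and 11.004 in ga1-3 on water, against 11.51, 11.45, 11.41 and 11.48 in wild type on KAR1 and 11.55, 11.34, 11.45 and 11.52 in wild type on water (-0.91 ± 0.20 on KAR1, adjusted p = 0.00425). The ga1-3 KAR1 array of harvest A was by far the lowest, and without it the difference was still called at -0.56. AT1G53540 had 11.93, 11.93 and 11.91 in ga1-3 on KAR1, against 12.25, 12.61, 12.09 and 12.49 in wild type on KAR1 (-0.44 ± 0.16, adjusted p = 0.0441), and its call was lost without any one of 6 arrays, at -0.47 to -0.35. With the cluster block 2 of the 3 genes were called lower, as were 10.4% of all probe sets.

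The 11 redox and stress genes had 3 higher and 2 lower members, or 27.3% and 18.2%, against 19.3% and 18.3% of all probe sets. The median shift gave 0 higher and 3 lower, or 0% and 27.3%, against 12.2% and 28.7% of all probe sets. Quantile normalization gave 1 and 4, or 9.09% and 36.4%, against 19.6% and 15.5%. With the cluster block there were 1 and 0, or 9.09% and 0%, against 9.4% and 10.4%. In all 3 scalings 0 were called higher and 2 lower, against 11.3% and 12.7%. AT3G56350, a superoxide dismutase, averaged 13.84 ± 0.05 in ga1-3 on KAR1 and 13.85 ± 0.04 in wild type on KAR1. The glutaredoxin GRXC1 (AT5G63030) averaged 12.44 ± 0.04 and 12.66 ± 0.22 in the same groups, and neither gene was called. The lower members were AT3G11930, a universal stress protein gene, at 12.002 ± 0.10 in ga1-3 on KAR1 and 12.32 ± 0.17 in wild type on KAR1 (-0.32 ± 0.10, adjusted p = 0.0278), and DI19 (AT1G56280), a drought-induced zinc finger protein gene, at 11.55 ± 0.32 and 12.14 ± 0.13 (-0.59 ± 0.22, adjusted p = 0.0492). Both lost their call with the cluster block, at -0.11 and -0.14, and without ga1-3 KAR1 B (-0.32 and -0.51), ga1-3 KAR1 C (-0.27 and -0.49), wild type KAR1 A (-0.31 and -0.55) or wild type KAR1 B (-0.25 and -0.59), DI19 also without wild type KAR1 C (-0.57) or D (-0.65). The DI19 call was lost as well in the fit without the wild type water arrays (adjusted p = 0.0682) and with eBayes without trend and robust (adjusted p = 0.0581).

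Of the 12 enzymes of metabolism 4 were higher and 3 lower, or 33.3% and 25%, against 19.3% and 18.3% of all probe sets. Quantile normalization gave 1 higher and 4 lower, or 8.33% and 33.3%, against 19.6% and 15.5% of all probe sets. The median shift gave 4 and 4, or 33.3% each, against 12.2% and 28.7%. With the cluster block there were 0 and 2, or 0% and 16.7%, against 9.4% and 10.4%. FDH (AT5G14780), the formate dehydrogenase, had 12.48, 12.50 and 12.62 in ga1-3 on KAR1, against 11.91, 12.16, 11.93 and 12.12 in wild type on KAR1, without overlap (0.50 ± 0.10, adjusted p = 0.00231), and was not called with the cluster block (0.38). PDC2 (AT5G54960), a pyruvate decarboxylase of fermentation, averaged 12.29 ± 0.21 in ga1-3 on KAR1 and 11.62 ± 0.29 in wild type on KAR1 (0.67 ± 0.23, adjusted p = 0.0361). The PDC2 call was lost with quantile normalization (0.53), with the cluster block (0.20), and without ga1-3 KAR1 B (0.66), ga1-3 KAR1 C (0.57), wild type KAR1 A (0.52) or wild type KAR1 C (0.68). CYN (AT3G23490), a cyanase that degrades cyanate, had 10.91, 10.39 and 10.44 in ga1-3 on KAR1 and 11.27, 10.45 and 10.45 in ga1-3 on water, against 11.86, 11.61, 11.58 and 11.49 in wild type on KAR1 and 12.04, 11.42, 11.76 and 11.68 in wild type on water. Harvest A stood highest in each of the 4 groups. On KAR1 the intensity in ga1-3 was 0.482 of that in wild type (-1.05 ± 0.21, adjusted p = 0.00248), and with the cluster block the difference was -0.56 and not called.

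AT3G05260, a short-chain dehydrogenase gene of rank 11, had 13.69, 13.67 and 13.61 in ga1-3 on KAR1, against 13.90, 13.998, 13.89 and 13.88 in wild type on KAR1 (-0.26 ± 0.05, adjusted p = 0.00168). Its genotypes did not overlap, and the call was kept in every setting tried. AT2G29300, of the same family, averaged 10.68 ± 0.28 in ga1-3 on KAR1 and 11.32 ± 0.22 in wild type on KAR1 (-0.64 ± 0.14, adjusted p = 0.00332). AT1G54870, also of that family and the one of highest rank, averaged 14.26 ± 0.13 in ga1-3 on KAR1 and 14.08 ± 0.07 in wild type on KAR1 and was not called. BGLU19 (AT3G21370), a beta-glucosidase, averaged 13.44 ± 0.27 and 13.71 ± 0.25 in those groups and was not called either.

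Among the 58 ribosomal protein genes 21 were higher and 1 lower in ga1-3 on KAR1, and the median difference was 0.17. These are 36.2% and 1.72%, against 19.3% and 18.3% of all probe sets. Differences were positive for 48 of the 58 on the values as deposited, 34 with quantile normalization and 36 with the median shift, so the excess over 0 shrank with the scaling. With quantile normalization 6 were called higher and 2 lower, or 10.3% and 3.45%, against 19.6% and 15.5% of all probe sets. With the median shift there were 5 and 2, or 8.62% and 3.45%, against 12.2% and 28.7%, and with the cluster block 9 and 2, or 15.5% and 3.45%, against 9.4% and 10.4%. Leaving out 1 array gave 11 (ga1-3 KAR1 B) to 22 (wild type KAR1 C) higher. There were 12 each without ga1-3 KAR1 C or wild type KAR1 B and 14 without wild type KAR1 A. Of all probe sets 13.2% were called higher without ga1-3 KAR1 B and 13.7% without ga1-3 KAR1 C. Without wild type KAR1 A, B or C, 3650, 4270 and 3955 of all 22746 probe sets were called higher. In all 3 scalings 5 of the 58 were called higher and 1 lower. That is 8.62% and 1.72%, against 11.3% and 12.7% of all probe sets. The 5 were both genes of L4, AT3G09630 and AT5G02870, the L7a gene AT3G62870, the L15 gene AT4G17390 and the S4 gene AT5G07090.

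The L4 gene AT5G02870 had 12.04, 12.36 and 12.46 in ga1-3 on KAR1, 11.82, 12.34 and 12.32 in ga1-3 on water, 11.19, 11.55, 11.70 and 11.70 in wild type on KAR1, and 11.09, 11.51, 11.52 and 11.40 in wild type on water. The lowest ga1-3 array stood above the highest wild type array, and on KAR1 the difference was 0.75 ± 0.17 (adjusted p = 0.00505). Its copy AT3G09630 averaged 12.24 ± 0.15 in ga1-3 on KAR1 and 11.61 ± 0.22 in wild type on KAR1 (0.64 ± 0.15, adjusted p = 0.00705). Neither L4 gene was called with the cluster block, at 0.34 and 0.29. AT3G62870 had 13.28, 13.15 and 13.17 in ga1-3 on KAR1, against 12.72, 12.49, 12.92 and 12.95 in wild type on KAR1 (0.43 ± 0.10, adjusted p = 0.00567). AT5G07090 had 12.30, 12.14 and 12.24 in ga1-3 on KAR1, against 11.73, 11.53, 11.75 and 11.86 in wild type on KAR1 (0.51 ± 0.11, adjusted p = 0.00362). For both of them the genotypes did not overlap and the call was lost in no setting tried. AT4G17390 averaged 12.36 ± 0.06 in ga1-3 on KAR1 and 11.89 ± 0.21 in wild type on KAR1 (0.47 ± 0.10, adjusted p = 0.00413).

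Several ribosomal proteins had more than 1 gene among the members, 15 proteins with 31 genes in all, and copies of 1 protein did not always move alike. Each of these genes was read by a probe set of its own, but binding of near-identical copies to 1 probe set could not be checked. For L17 the copy AT1G27400 was lower, at 11.26, 10.83 and 10.96 in ga1-3 on KAR1 against 11.61, 11.28, 11.75 and 11.62 in wild type on KAR1 (-0.55 ± 0.12, adjusted p = 0.00433), while AT1G67430 averaged 13.32 in ga1-3 on KAR1 and 13.25 in wild type on KAR1 and was not called. Of the 58 genes classed here as ribosomal proteins, AT1G27400 was the only one called lower on the values as deposited, and its genotypes did not overlap. Members with no role given could include further genes of this kind. For the acidic stalk protein P1, AT5G47700 had 11.88, 12.33 and 12.20 in ga1-3 on KAR1 against 11.79, 11.49, 10.79 and 11.43 in wild type on KAR1 (0.76 ± 0.23, adjusted p = 0.0196), and AT1G01100 13.31, 13.44 and 13.47 against 13.29, 13.21, 13.22 and 13.23, which was not called. The AT5G47700 call was lost with the median shift (0.63), the cluster block (0.66), and without ga1-3 KAR1 B (0.66) or C (0.73). For P2, AT2G27710 was higher (0.38 ± 0.08, adjusted p = 0.00366) at 12.91 ± 0.03 in ga1-3 on KAR1 and 12.53 ± 0.10 in wild type on KAR1, and its direct neighbour on the chromosome AT2G27720 was not called at 12.37 and 12.45. For L22, AT3G05560 was higher at 12.48 ± 0.07 in ga1-3 on KAR1 and 12.05 ± 0.08 in wild type on KAR1 (0.43 ± 0.11, adjusted p = 0.00777), and AT5G27770 was not called at 11.65 and 11.65. The AT2G27710 and AT3G05560 calls did not hold with quantile normalization (0.22 and 0.25) or the median shift (0.25 and 0.29), nor that of AT3G05560 with the cluster block (0.43). The difference between copies of 1 protein was not tested.

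**Figure D3:**
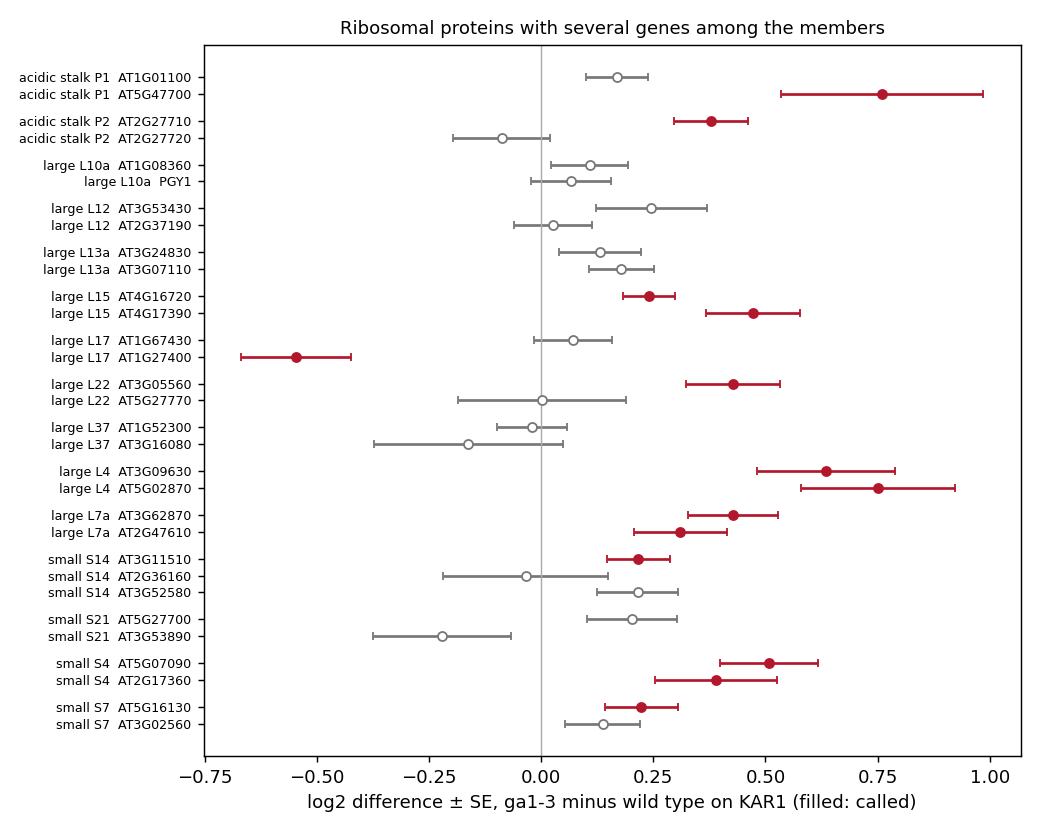
Difference of ga1-3 minus wild type on KAR1 (x axis, log2, bars ± SE, n = 3 and 4 arrays) for the 31 ribosomal protein genes whose protein has several genes among the members, grouped by protein; filled red points were called. The L4, L7a and S4 copies all lie to the right, while for L17 AT1G27400 lies to the left at -0.55 and its copy near 0.

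The 8 translation factor and ribosome assembly genes had 1 higher and 2 lower members, or 12.5% and 25%, against 19.3% and 18.3% of all probe sets. Quantile normalization gave 0 higher and 5 lower, or 0% and 62.5%, against 19.6% and 15.5%. The median shift gave 1 and 3, or 12.5% and 37.5%, against 12.2% and 28.7%. With the cluster block there were 1 and 1, or 12.5% each, against 9.4% and 10.4%. PRH75 (AT5G62190), a nucleolar RNA helicase, had 12.17, 12.11 and 12.002 in ga1-3 on KAR1 and 12.03, 11.94 and 12.24 in ga1-3 on water, against 10.84, 11.70, 11.32 and 11.63 in wild type on KAR1 and 10.82, 11.89, 11.43 and 11.74 in wild type on water. Its wild type levels varied by harvest, lowest in A and highest in B in both treatments, and all ga1-3 arrays stood above all wild type arrays. On KAR1 the difference was 0.72 ± 0.25 (adjusted p = 0.0384), a call lost with quantile normalization (0.57), with the cluster block (0.63) and without any one of ga1-3 KAR1 A, B or C or wild type KAR1 A or C (0.54 to 0.76). AT5G20160, of the L7Ae family, was lower at 11.34 ± 0.04 in ga1-3 on KAR1 and 11.88 ± 0.10 in wild type on KAR1 (-0.54 ± 0.12, adjusted p = 0.00483), and was not called with the cluster block (-0.49). AT4G27130, an initiation factor of the SUI1 family, had 12.53, 11.81 and 11.68 in ga1-3 on KAR1 against 12.58, 12.65, 12.33 and 12.58 in wild type on KAR1 (-0.53 ± 0.19, adjusted p = 0.0496). Harvest A of ga1-3 lay among the wild type arrays, the difference with the cluster block was -0.02, and the call was lost without any one of 5 arrays, at -0.52 to -0.37. The call was lost too in the fit without the wild type water arrays (adjusted p = 0.0847) and with eBayes without trend and robust (adjusted p = 0.0581). The initiation factor 1A gene AT2G04520 averaged 12.26 ± 0.46 and 12.55 ± 0.12 and was not called.

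Among the 6 signalling, chromatin and turnover genes 2 were higher and 1 lower, or 33.3% and 16.7%, against 19.3% and 18.3% of all probe sets. With the cluster block 0 were called, against 9.4% and 10.4% of all. AT5G18450, a transcription factor gene of the DREB2 group, whose members respond to drought, had 12.06, 12.45 and 12.42 in ga1-3 on KAR1 and 12.33, 12.56 and 12.50 in ga1-3 on water, against 11.45, 11.69, 11.52 and 11.67 in wild type on KAR1 and 11.36, 11.89, 11.74 and 11.89 in wild type on water. No ga1-3 array reached down to a wild type array (0.73 ± 0.14 on KAR1, adjusted p = 0.00168). UBC28 (AT1G64230), a ubiquitin-conjugating enzyme, had 11.69, 11.04 and 10.96 in ga1-3 on KAR1 and 12.17, 11.11 and 11.24 in ga1-3 on water, against 12.43, 12.18, 12.20 and 12.32 in wild type on KAR1 and 12.53, 11.91, 12.34 and 12.60 in wild type on water. On KAR1 ga1-3 had 0.483 of the intensity of wild type (-1.05 ± 0.26, adjusted p = 0.00775), whereas on water ga1-3 harvest A lay within the wild type range. With the cluster block neither was called, at 0.48 for AT5G18450 and -0.54 for UBC28. The autophagosome gene APG8H (AT3G15580), of the ATG8 family, averaged 12.29 ± 0.04 in ga1-3 on KAR1 and 12.44 ± 0.22 in wild type on KAR1 and was not called. Of the 3 mitochondrial members, the scaffold protein ISU1 (AT4G22220), the complex I subunit AT3G03100 and the cytochrome c oxidase subunit AT4G21105, none was called.

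The 64 members with no role given had 4 higher and 20 lower, with a median of -0.12. Roles were given by hand after values were seen, so genes for ribosomal or ribosome assembly proteins may stand among these. The counts of those classes given above would then change, also in the number called lower. These are 6.25% and 31.2%, against 19.3% and 18.3% of all probe sets. The cluster block gave 6 higher and 8 lower, against 9.4% and 10.4% of all, and the cluster of both genotypes alone gave 4 and 6, against 8.27% and 10.8%. In all 3 scalings 0 were called higher and 20 lower, or 0% and 31.2%, against 11.3% and 12.7% of all probe sets. AT5G01350 had the largest difference of all members, with 11.57, 11.19 and 11.15 in ga1-3 on KAR1 and 12.18, 11.36 and 11.39 in ga1-3 on water, against 12.53, 12.28, 12.39 and 12.46 in wild type on KAR1 and 12.78, 11.84, 12.50 and 12.51 in wild type on water. The groups did not overlap on KAR1, where ga1-3 had 0.462 of the intensity of wild type (-1.11 ± 0.23, adjusted p = 0.00292). AT2G44860 had 10.81, 10.78 and 10.82 in ga1-3 on KAR1, against 11.69, 11.62, 11.87 and 11.59 in wild type on KAR1 (-0.89 ± 0.14, adjusted p = 0.000358). AT3G14595, of rank 29, had 12.82, 12.22 and 12.10 in ga1-3 on KAR1 against 13.30, 13.35, 13.30 and 13.11 in wild type on KAR1 (-0.88 ± 0.18, adjusted p = 0.00277), and AT2G32090 averaged 10.49 ± 0.20 and 11.35 ± 0.15 (-0.86 ± 0.20, adjusted p = 0.00474). None of these 4 calls rested on a single array, and with the cluster block the differences were -0.76, -0.72, -0.41 and -0.43, called for AT2G44860 and AT3G14595. AT2G21820, the member of rank 2, was higher at 14.71 ± 0.06 in ga1-3 on KAR1 and 14.53 ± 0.04 in wild type on KAR1 (0.19 ± 0.06, adjusted p = 0.0246), but at 0.08 with quantile normalization and 0.06 with the median shift, and was lost without ga1-3 KAR1 A (0.16), ga1-3 KAR1 C (0.20) or wild type KAR1 C (0.17). AT1G04560, of rank 6, averaged 14.19 ± 0.10 and 14.24 ± 0.01 and was not called.

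**Figure D4:**
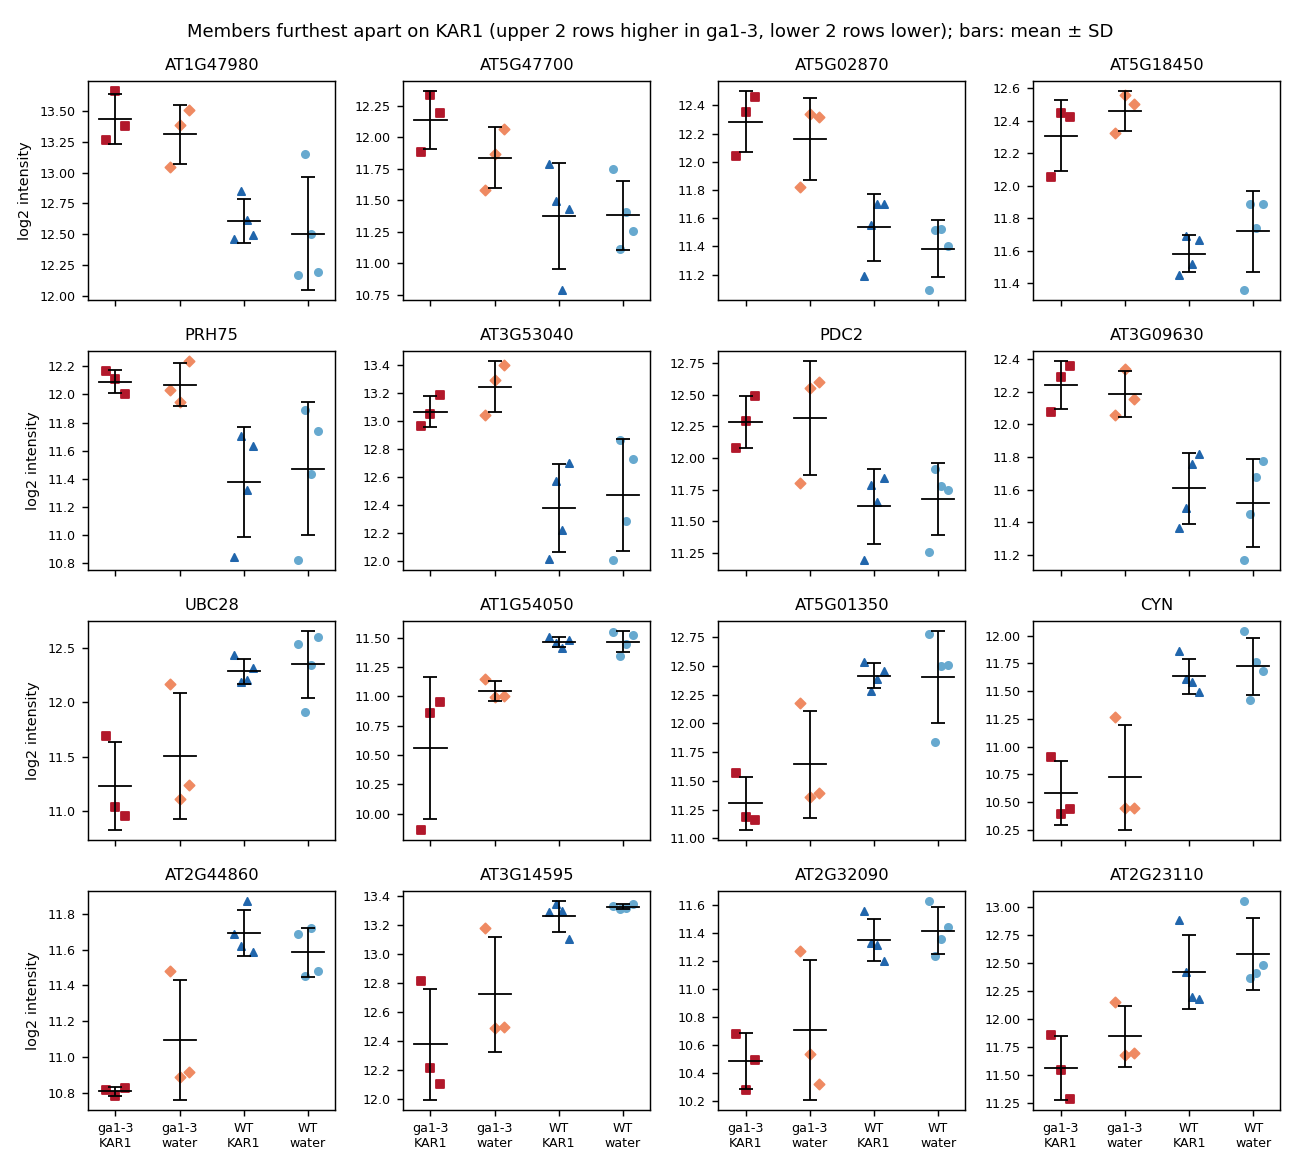
Log2 intensity (y axes, each panel on its own scale) of the 16 members furthest apart between the genotypes on KAR1, 1 point per array in order of harvest letter, with mean ± SD (n = 3 for ga1-3, n = 4 for wild type); groups from left to right are ga1-3 on KAR1, ga1-3 on water, wild type on KAR1 and wild type on water. In the lower panels ga1-3 harvest A often stands nearest to wild type, as in UBC28 on water at 12.17.

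KAR1 changed no member by the test in ga1-3 seed. limma called 0 of 22746 probe sets, so the background of called probe sets was 0% and the members' count was 0 of 200, with a lowest adjusted p of 1.00 among members. With the seed batch as a replicate block 3 probe sets were called higher, or 0.0132%, and again 0 members, with a lowest adjusted p of 0.118 among members. At an unadjusted p under 0.05 there were 2 members with a positive and 13 with a negative difference. That is 7.5%, against 2.005% of all probe sets and 4.5% of ranks 201 to 1000. With the block there were 58 such members, or 29%, against 7.59% of all probe sets and 18% of ranks 201 to 1000. The members' differences ranged from -0.53 to 0.30 with a median of -0.04, and their median SE was 0.12, or 0.06 with the block.

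Of the 58 ribosomal protein genes 49 had a positive difference of KAR1 minus water in ga1-3, with a median of 0.08, and of the 142 other members 27, with a median of -0.09. Over all 200 members 38% were positive, against 38.5% of ranks 201 to 1000 and 36.5% of all probe sets. Of the 22746 probe sets 8312 were counted as positive and 11375 as negative. The median over all of them was -4.4e-16, so signs of differences at 0 were set by rounding. With the seed batch as a replicate block 45.4% of all probe sets were positive. Among probe sets of mean log2 4 or more the share was 44%. The 36.5% is therefore no sound background for the members. With quantile normalization the shares were 42% of members, 42% of ranks 201 to 1000 and 54.1% of all probe sets. With the median shift they were 44%, 43.6% and 67.6%, so only the ranks 201 to 1000 stayed close to the members. Not every role followed a sign, as 4 of 8 translation factor and ribosome assembly genes and 2 of 5 storage genes were positive. Harvest by harvest the ribosomal median was 0.11 in A, 0.05 in B and 0.10 in C, and that of the other members -0.12, -0.07 and -0.09. These are medians, and single genes lay on both sides, with 48, 39 and 47 of the 58 ribosomal genes and 36, 41 and 32 of the 142 others positive in harvests A, B and C. Quantile normalization gave 49 positive ribosomal genes and 35 positive others, the median shift 51 and 37, and leaving out both arrays of harvest A gave 47 and 33. Without the ga1-3 water array of harvest A alone there were 45 positive ribosomal genes and 49 positive others, whose median was then -0.04. Without the ga1-3 KAR1 array of harvest A there were 43 and 31, and the ribosomal median was 0.04. No ribosomal gene passed the test on its own, the genes of 1 array share their library, roles were assigned with values known, and no test was made over the group.

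In wild type, where the water arrays chose the members, the same difference is a description only. The members' differences ranged from -0.27 to 0.22 with a median of -0.00, 97 were positive and 103 negative, and 49 of the 58 ribosomal protein genes were positive. The ribosomal median was 0.03, 0.08, 0.08 and 0.10 in harvests A to D, and that of the other members -0.01, 0.02, -0.05 and -0.08. All 4 ribosomal medians lay above 0 and above that of the other members of the same harvest.

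**Figure D5:**
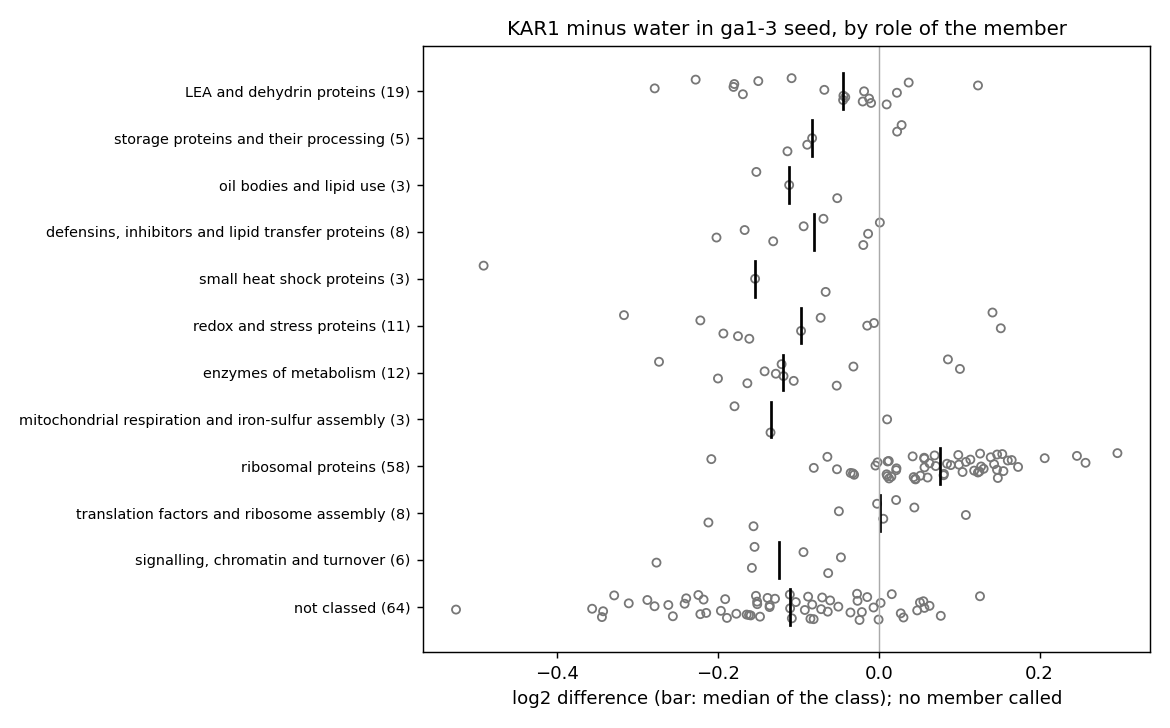
Difference of KAR1 minus water in ga1-3 seed for each of the 200 members (x axis, log2, mean of 3 arrays minus mean of 3 arrays), in rows by role with the number of members in brackets; the bar is the median of the row. No member was called; 49 of 58 ribosomal protein genes lie right of 0, while 53 of the 64 unclassed members lie left of it.

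The members with the smallest p for KAR1 in ga1-3 illustrate the size of these differences. AT3G05560, the L22 gene, had 12.53, 12.40 and 12.51 in ga1-3 on KAR1 and 12.23, 12.20 and 12.24 in ga1-3 on water, a difference of 0.26 ± 0.11 with no overlap. AT2G34480, encoding L18a, had 12.45, 12.52 and 12.56 on KAR1 and 12.22, 12.52 and 12.27 on water in ga1-3 (0.17 ± 0.08), and its KAR1 array of harvest A lay below its water array of harvest B. In the same seed the P1 gene AT1G01100 had 13.31, 13.44 and 13.47 on KAR1 and 13.16, 13.34 and 13.27 on water (0.15 ± 0.07), and the P2 gene AT2G27710 12.90, 12.94 and 12.89 on KAR1 and 12.66, 12.83 and 12.77 on water (0.16 ± 0.09). On the negative side stood AT5G45690, with 13.11, 13.05 and 13.15 on KAR1 and 13.39, 13.30 and 13.39 on water in ga1-3 (-0.26 ± 0.08), and AT1G54860, with 12.21, 12.21 and 12.27 on KAR1 and 12.51, 12.39 and 12.46 on water (-0.22 ± 0.07). The groups did not overlap in either. AT3G21380 had the most negative difference of all members, with 11.86, 11.43 and 11.47 on KAR1 and 12.43, 12.02 and 11.89 on water (-0.53 ± 0.17), and AT3G05260 had 13.69, 13.67 and 13.61 on KAR1 and 13.88, 13.74 and 13.84 on water (-0.16 ± 0.05). None of these 8 differences passed the adjustment over all probe sets, with or without the block. Groups did not overlap for 29 members, or 14.5%, against 4.66% of all probe sets. The share among probe sets of like brightness was not computed.

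The ranking of signals was largely shared by the groups. Of the 200 members 173 were also among the 200 brightest annotated probe sets in ga1-3 on KAR1, 179 in ga1-3 on water, 192 in wild type on KAR1, and 167 in all 4 groups. The lowest rank of a member was 386 in ga1-3 on KAR1 (AT2G32090), 356 in ga1-3 on water (AT5G56100) and 219 in wild type on KAR1 (AT5G43770). Against wild type on water, ga1-3 on water had 120 members with a positive and 80 with a negative difference, from -1.002 for CYN to 0.81 for AT1G47980, with a median of 0.08. Those values are a description, since the wild type water arrays chose the members.

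Replicate arrays of the members lay close together. The median SD of a member was 0.12 in ga1-3 on KAR1, 0.11 in ga1-3 on water, 0.12 in wild type on KAR1 and 0.14 in wild type on water. The largest SD over the wild type water arrays was that of PRH75 at 0.47, followed by AT1G47980 at 0.46, AT5G27760 at 0.40 and AT5G01350 at 0.40. AT5G27760, of a hypoxia-responsive family, had 11.50, 11.25 and 11.14 in ga1-3 on KAR1 and 11.30, 11.11 and 11.06 in ga1-3 on water, against 12.20, 11.61, 11.67 and 11.47 in wild type on KAR1 and 12.15, 11.22, 11.70 and 11.40 in wild type on water. Harvest A was the highest in each group, and the gene was not called between the genotypes on KAR1. By position, 17 members formed 10 pairs at most 2 places apart in the gene order, of which 6 pairs were direct neighbours. One such pair was M17 and M10, both of the LEA class, and another AT2G23110 and AT2G23120, also LEA genes, of which AT2G23110 was lower in ga1-3 on KAR1 and AT2G23120 was not called at 11.55 ± 0.48 in ga1-3 on KAR1 and 11.93 ± 0.07 in wild type on KAR1.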

How the data were processed

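RNA of whole seed was hybridised to 14 single-colour arrays. The authors deposited a linear intensity for every probe set of each array, made with GCRMA per the submitters' processing notes; the version, the grouping of arrays and detection calls are not given in the sources used here. Labelled cRNA was amplified from the 3′ end of 7 ug of total RNA, per the labels' protocols, so probe sets read mainly 3′ ends. GCRMA adjusts background and rescales arrays, and the brightest probe sets can be near saturation, which could not be checked. Arrays have no depth in counts, and their number limits the precision.

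The log2 of the intensity was taken and 64 control probe sets were left out, leaving 22746. Names came from the platform annotation, and all 200 members matched a RefSeq gene table, used for names, gene spans and gene order only. Tests of differences used limma 3.58.1 under R 4.3.3 (means of the 4 groups over all 14 arrays, eBayes with trend and robust, two-sided, Benjamini-Hochberg over all probe sets). A call is an adjusted p under 0.05, and ± after a difference is its SE, after a mean its SD. The steps were tested on simulated data with independent normal noise. That simulation held no pairing by harvest, no clusters and no scaling difference, so it cannot show how these affect the calls. P-values of this fit measure the spread between arrays within groups, where each array is from a harvest of its own. The labels call these harvests distinct. The fit counts the water and KAR1 arrays of the same harvest as independent, although they share seed. Its spread therefore rests on fewer independent harvests than arrays. Only the fits with a replicate block by harvest take account of that pairing.

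Harvest letters pair the water and KAR1 arrays of a genotype, per the labels. Deviations from group means correlated within these pairs at 0.778, 0.61 and 0.557 in ga1-3 and at 0.855, 0.6, 0.507 and 0.688 in wild type.

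Members and gene lists were chosen with earlier results of these data known. The annotation gives no product names, so roles were assigned by hand per locus, after values had been seen. Named genes are the 10 brightest, the 3 brightest of each role, up to 8 called members per direction without overlap (or the 4 smallest p), the 4 largest SDs and those at the limit of rank 200. Also named, after their values were seen, were members with a role that were called in all 3 scalings, called storage members, other copies of named ribosomal proteins and neighbours. Promoter and protein sequences were not analysed here.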

Additional observations from a re-analysis of the deposited data

Results flagged for a closer look

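In groups of 4 arrays, 9 of 154 checked sets of values held an array that stood apart from the others by Dixon's criterion, which chance alone meets in about 5% of sets. All are in wild type, since groups of 3 were not checked. On KAR1, ICL had 13.76 in harvest A against 13.99 to 14.002 in the others, AT1G48750, a lipid transfer protein gene, 13.36 in A against 13.10 to 13.12, ISU1 12.32 in A against 12.11 to 12.14, AT3G05260 13.998 in B against 13.88 to 13.90, and the S25 gene AT4G39200 13.44 in B against 13.73 to 13.75. On water, AT4G39200 had 13.42 in B against 13.64 to 13.68, PAP85 14.68 in D against 14.58 to 14.60, M10 13.92 in B against 14.20 to 14.24, and AT5G56100 11.70 in A against 11.23 to 11.28. AT4G39200 was thus low in both arrays of harvest B.

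For 2 of the 77 genes checked, all harvests of ga1-3 moved one way with KAR1 and all harvests of wild type the other way. With so few harvests some genes meet this rule by chance, and how many was not computed. The KAR1 difference of the small heat shock protein gene AT1G52560 was -0.15 in ga1-3 and 0.16 in wild type, and -0.31 between them. That of AT2G44860 was -0.29 in ga1-3 and 0.11 in wild type, and -0.40 between them. These contrasts between genotypes were not tested, since the wild type water arrays chose the members.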

How the results depend on the processing

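Counts of calls between the genotypes on KAR1 (44 members higher, 36 lower, 4397 and 4163 of all probe sets, 21 and 1 ribosomal genes) changed with several settings. The count of all probe sets called lower moved most with the floor at intensity 16, to 1137. In the order members higher, members lower, all higher, all lower, those outside 1.5 times were as follows. Quantile normalization gave 14 and 57 members, the median shift 17 members higher and 2769 and 6519 probe sets, a floor at intensity 16 gave 26 members higher and 2263 probe sets higher, and only probe sets of mean log2 4 or more gave 2801 and 1530. The cluster block gave 21, 17, 2139 and 2363, the cluster of both genotypes alone 18, 13, 1882 and 2457, and its omission 19 members higher. Array weights gave 6673 probe sets lower, and the 200 brightest of ga1-3 on water had 23 lower. Leaving out 1 array gave 23 to 41 members higher, 23 to 40 lower, 2992 to 4270 probe sets higher and 3022 to 4297 lower. Ribosomal genes called higher numbered 9 with the floor, 9 with the cluster block, 9 within the cluster, 5 with the median shift, 6 with quantile normalization, 11 without that cluster and 11 to 22 leaving out 1 array. Ribosomal genes called lower numbered 2 with array weights, the replicate block by harvest letter, the cluster block and both scalings, and 1 to 2 leaving out 1 array. The replicate block by letter, which pairs unrelated harvests of the 2 genotypes, gave 54 and 48 members. The cause of these shifts was not tested.

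For KAR1 in ga1-3, probe sets called higher numbered 3 with the seed batch as replicate block, 7 with array weights, 7 with the cluster block, 6 without both arrays of harvest A and 0 to 3 leaving out 1 array. Probe sets called lower numbered 1 with array weights and 0 to 3 leaving out 1 array. The replicate block changed no call of a member.

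Among single genes, AT4G27130 changed sign within the cluster of both genotypes, at 0.076. Of the other planned and added settings for called genes 452 kept the call and 119 lost it, and of those leaving out 1 array 242 kept and 66 lost it. The median member level with quantile normalization was 12.22 in ga1-3 on KAR1, 12.21 in ga1-3 on water, 12.34 in wild type on KAR1 and 12.34 in wild type on water, and with the median shift 12.25, 12.22, 12.32 and 12.30, so the order of the genotypes turned round. The wild type water members kept 196 to 198 of 200 when 1 array was left out.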

Other observations

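Ranking annotated probe sets by ga1-3 instead of wild type brought 19 genes into the 200 brightest of both ga1-3 groups that were not among the 200 of wild type on water. AT2G42560, a LEA gene, averaged 12.86 ± 0.37 in ga1-3 on KAR1, 12.93 ± 0.52 in ga1-3 on water, 9.50 ± 1.73 in wild type on KAR1 and 9.60 ± 1.86 in wild type on water (SD), which placed it at ranks 54, 54, 746 and 693. Its spread between wild type harvests was wide. AT5G62210, of an embryo-specific protein family, averaged 12.13 ± 0.75, 11.48 ± 1.13, 9.52 ± 0.97 and 8.58 ± 1.38 in the same order of groups. ARA12 (AT5G67360), a subtilisin-type protease, averaged 11.78 ± 0.40, 11.53 ± 0.75, 10.17 ± 0.54 and 9.87 ± 0.47. MPPBETA (AT3G02090), a subunit of the mitochondrial processing peptidase, averaged 11.51 ± 0.31, 11.49 ± 0.40, 10.48 ± 0.25 and 10.38 ± 0.29. Most of the other entrants stood just outside rank 200 in wild type on water, among them the ribosomal protein genes AT3G56340 (S26) at rank 255, AT5G09510 (S15) at 263 and AT5G39850 (S9) at 217. These genes were picked for their change in rank, so the values are a description with no test.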
